A study of Mus musculus with 22 samples.

Results

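The 9 genes described here encode the enzymes and binding proteins that act on methylated cytosine after it has been written: the oxidases Tet1, Tet2 and Tet3, the glycosylase Tdg, the hemimethylation readers Uhrf1 and Uhrf2, and the methyl-CpG readers Mbd1, Mbd2 and Mbd3. They were chosen by name from the 30170 genes of the count table, and all 9 passed the filter on low counts that left 14520 genes for testing. The cells were C3H 10T1/2, an established mouse mesenchymal line that can be driven into adipocytes, and the lines are labelled by their DNMT3A genotype as WT, as W330R, a substitution in the PWWP domain that reads histone methylation, or as the double mutant W330R-R181E. WT and W330R were sampled undifferentiated and on days 2, 4 and 6 of adipocyte differentiation, W330R-R181E on days 2, 4 and 6, giving 11 conditions with 2 libraries each and 22 libraries in all. Every differentiated condition shared the same medium, a cocktail of isobutylmethylxanthine, dexamethasone, insulin and troglitazone up to day 2 and insulin alone after that. The lines were made to express DNMT3A1 mutants, and the sources used here do not say whether the WT line also carries a construct. The labels give neither a promoter nor whether a line is 1 clone or whether the 2 libraries of a condition are separate cultures, so the p-values measure only the spread between these libraries, which may be technical.

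TET proteins oxidize 5-methylcytosine to 5-hydroxymethylcytosine and further, and TDG excises the later oxidation products, after which base excision repair restores an unmethylated cytosine. UHRF1 binds hemimethylated CpG behind the replication fork and brings DNMT1 to it, so that the mark survives cell division, and its paralog UHRF2 has the same domains. MBD2 and MBD3 are alternative subunits of the NuRD nucleosome remodelling and deacetylase complex, of which MBD2 binds methylated CpG and mammalian MBD3 hardly does, and MBD1 works with the H3K9 methyltransferase SETDB1.

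Uhrf1 and its paralog Uhrf2 took unlike courses during differentiation, and the 250 bases upstream of a start site of each are shown to set them side by side (RefSeq, build GRCm38.p6, written 5′ to 3′ on the gene's strand). The capitals mark a match to any of 4 forms of the site bound by E2F, the family of factors that drives S phase genes: TTTCCCGC, TTTGGCGC, TTTCGCGC or TTTGCCGC, searched on both strands. Uhrf1 lies on chromosome 17 and is shown upstream of its second annotated start (chr17:56304063-56304312, plus strand). Uhrf2 lies on chromosome 19 (chr19:30030263-30030512, plus strand).
Uhrf1: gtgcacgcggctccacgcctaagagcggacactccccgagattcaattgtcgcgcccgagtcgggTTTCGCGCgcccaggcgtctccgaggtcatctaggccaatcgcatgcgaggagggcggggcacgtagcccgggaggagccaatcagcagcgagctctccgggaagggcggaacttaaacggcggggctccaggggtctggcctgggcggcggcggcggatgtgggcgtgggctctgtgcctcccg
Uhrf2: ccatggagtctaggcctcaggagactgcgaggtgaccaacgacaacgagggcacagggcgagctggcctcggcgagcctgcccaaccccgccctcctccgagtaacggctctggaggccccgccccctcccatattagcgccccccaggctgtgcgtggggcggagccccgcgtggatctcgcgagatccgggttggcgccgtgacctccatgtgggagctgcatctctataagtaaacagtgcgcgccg
The match in Uhrf1 began 185 bases before the start. No match was found upstream of the other Uhrf1 start, nor in the windows of Uhrf2, Tet1, Tet2, Tet3, Tdg and Mbd3. Of all 32851 promoter windows of this length, 1.86% held a match, and among the S phase genes listed below 5 of the 14 with a window held at least 1 (Cdc6, Mcm5, Mcm6, Mcm7 and Pola1), as did Dnmt1 at 1 of its starts and, among the maintenance partners, Hells and Cdca7, Suv39h1 among the MBD1 partners and Cdk1 among the mitosis genes. The window of Uhrf1 shown held 30 CpG sites and that of Uhrf2 23, against a median of 6 over all windows. A match describes letters only and was not tested as a binding site.

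Between 8859501 and 47453908 counts per library fell on genes, with a median of 19355792, and the members' levels are given as CPM, counts scaled to a common library size after TMM normalization. The summed level of 8 adipocyte markers went from 51.5 to 59.6 CPM in undifferentiated cells, where 3 or 4 of them were at 0 but Pparg had 280 to 653 counts and Cebpa 89 to 405, to between 1441 and 9229 CPM on days 2 to 6, with no marker at 0. Mesenchymal markers summed to 16504 to 20499 CPM in undifferentiated cells, 2605 to 4650 CPM at day 2, 6362 to 10507 CPM on day 4 and 7765 to 13720 CPM on day 6. Of them Thy1 was at 0 in WT day 2 replicate 2, WT day 4 replicate 2 and W330R-R181E day 2 replicate 2. Markers of muscle, macrophages, epithelium and endothelium summed to at most 16.4 CPM each. Replicate 1 of WT and of W330R-R181E stood apart from replicate 2 on each of days 2, 4 and 6: the summed chondrocyte markers Sox9, Acan and Col2a1 were 3.32 to 8.68 times higher there, whereas in W330R on the same days the ratio lay between 0.829 and 1.12. Undifferentiated libraries already had 970 to 1152 CPM of these markers. In WT and W330R-R181E on days 2 to 6 replicate 1 had 931 to 5141 CPM and replicate 2 had 210 to 1549 CPM, the lowest values of both being those of WT at day 2. Many of the members' differences are therefore also given without these 6 libraries, and the differences of partner genes are given with all libraries only. The fit without them rests on 16 libraries, with 1 library left in each of these 6 conditions. It assumes that the lone libraries vary like the other groups, which was not so for Tet1. Its ratio of replicate 1 to replicate 2 was 1.68 to 3.57 in these 6 conditions and 0.973 to 1.33 in W330R on the same days. The SEs and p-values of that fit are therefore not given. Dnmt3a, the gene that the lines alter, was read at 316 to 347 CPM in undifferentiated cells and at 68.5 to 322 CPM afterwards, lower in replicate 1 than in replicate 2 in 9 of 9 differentiated conditions. The counts do not tell a construct from the endogenous gene. Undifferentiated libraries are named in the count table in a different way from the others, and a difference in handling and the step to day 2 cannot be told apart. For 6 libraries the table's names give the second change as R181A where the labels give R181E. In whole cultures, fewer cells of a type and less RNA per cell cannot be told apart either.

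**Figure D1:**
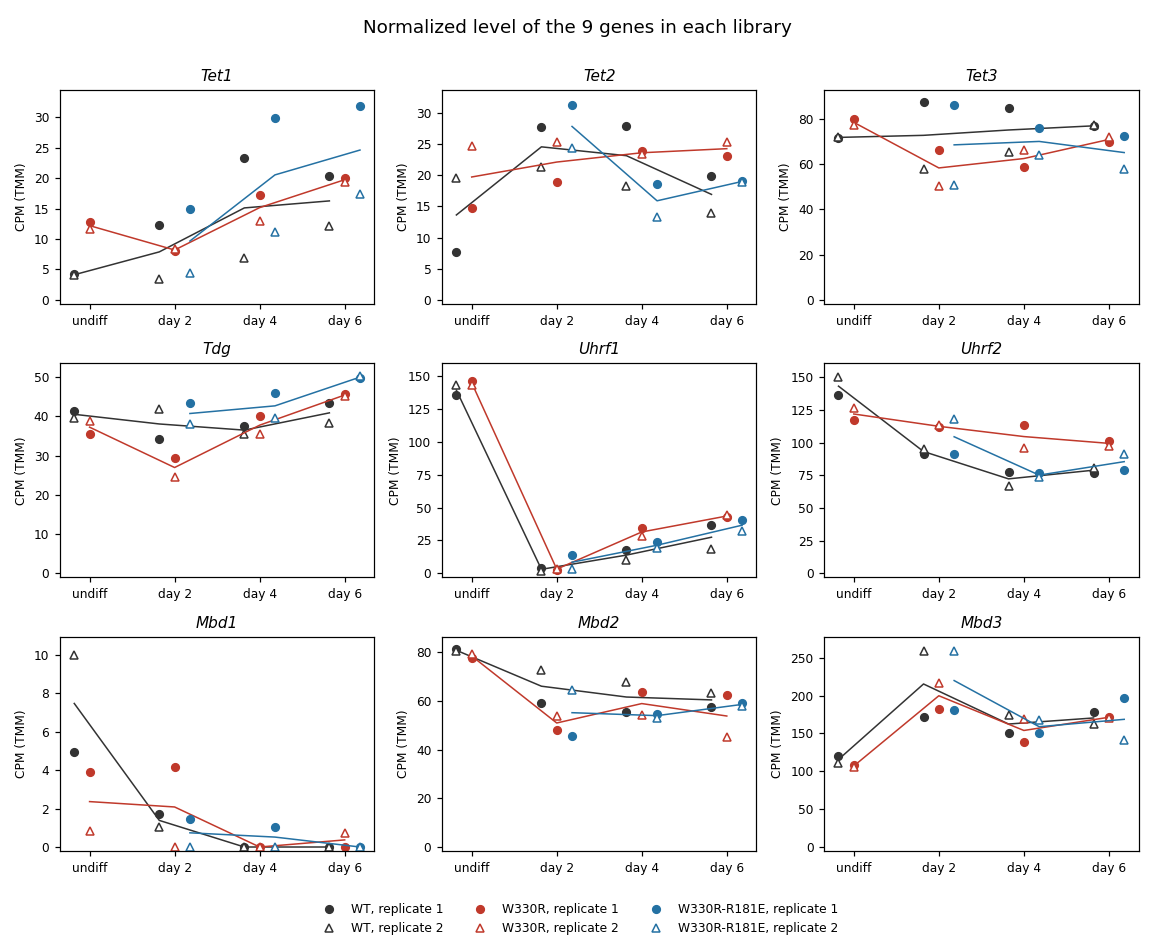
Level of each of the 9 genes (CPM after TMM scaling, linear axes that include 0) in undifferentiated cells and on days 2, 4 and 6, with 1 point per library, circles for replicate 1, triangles for replicate 2, colours for genotype and lines through the condition means. Uhrf1 falls from 135 to 146 CPM to under 14 CPM at day 2, and the circles of Tet1 lie above the triangles in WT and W330R-R181E.

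Among the 8 members with counts in every library, Uhrf1 had the widest range in fold terms. It stood at 135 and 143 CPM in undifferentiated WT cells and at 146 and 143 CPM in undifferentiated W330R cells. At day 2 it was at 4.23 and 1.97 CPM in WT, at 2.83 and 3.65 CPM in W330R, and at 13.6 and 3.32 CPM in W330R-R181E. No differentiated library came near the undifferentiated range, and the 13.6 CPM of W330R-R181E replicate 1 stood apart from the other 5 day 2 libraries. On day 4 WT reached 17.8 and 10.0 CPM, W330R 34.4 and 28.5 CPM and W330R-R181E 23.8 and 19.0 CPM. On day 6 the levels were 36.5 and 18.4 CPM in WT, 42.8 and 44.3 CPM in W330R, and 40.7 and 32.5 CPM in W330R-R181E. Every genotype was thus higher on day 6 than on day 2 in both libraries, and none regained the undifferentiated level.

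Over WT and W330R, day 2 against undifferentiated cells gave a log2 fold change of Uhrf1 of -5.50 ± 0.41 (SE, 45.2-fold lower, edgeR quasi-likelihood adjusted p = 5.9e-08), and -5.80 without the 6 libraries. The fall was -5.53 ± 0.58 in WT (adjusted p = 3.9e-06) and -5.47 ± 0.57 in W330R (adjusted p = 5.1e-06). From day 2 to day 6 the mean over the 3 genotypes rose by 3.03 ± 0.30 on the log2 scale, 8.15-fold (edgeR adjusted p = 2.8e-06), and by 3.41 without the 6 libraries. It rose by 3.19 ± 0.54 in WT, by 3.73 ± 0.54 in W330R and by 2.16 ± 0.50 in W330R-R181E, each past the threshold of an adjusted p of 0.05 (edgeR, 8.9e-04, 3.8e-04 and 0.0080). Without W330R-R181E day 2 replicate 2 the rise in the double mutant was 1.43 with an adjusted p of 0.061, and in the fit without the 6 libraries it was 3.29. Most of the rise lay between days 2 and 4, with 2.20 ± 0.54 in WT and 3.26 ± 0.53 in W330R (edgeR adjusted p = 0.019 and 0.0021). The WT step was lost without WT day 2 replicate 2 or WT day 4 replicate 1.

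These steps moved much of the transcriptome. Of all tested genes, 63.0% were called in day 2 against undifferentiated cells and 51.5% in day 6 against day 2, and of the 9 members 5 and 6 were called, shares close to those of all genes. In the gene lists below, the numbers higher and lower between stages are of genes called, to be read beside these shares of all genes. Within genotypes, 50.9% of genes were called from undifferentiated to day 2 in WT and 48.2% in W330R, with 3 and 4 members. From day 2 to day 6 the shares were 26.6% in WT, 25.0% in W330R and 23.2% in W330R-R181E, with 1, 2 and 1 members. From day 2 to day 4 they were 10.8%, 12.4% and 10.7% in the same order, again with 1, 2 and 1 members. From day 4 to day 6 edgeR called 0 members in any genotype, none of them reached an unadjusted p of 0.05 and DESeq2 called 0. Over all genes that last step gave 0.324% in WT, 0% in W330R and 0.0207% in W330R-R181E. The 0 genes of W330R stood beside 959 at an unadjusted p under 0.05 and 112 called by DESeq2.

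**Figure D2:**
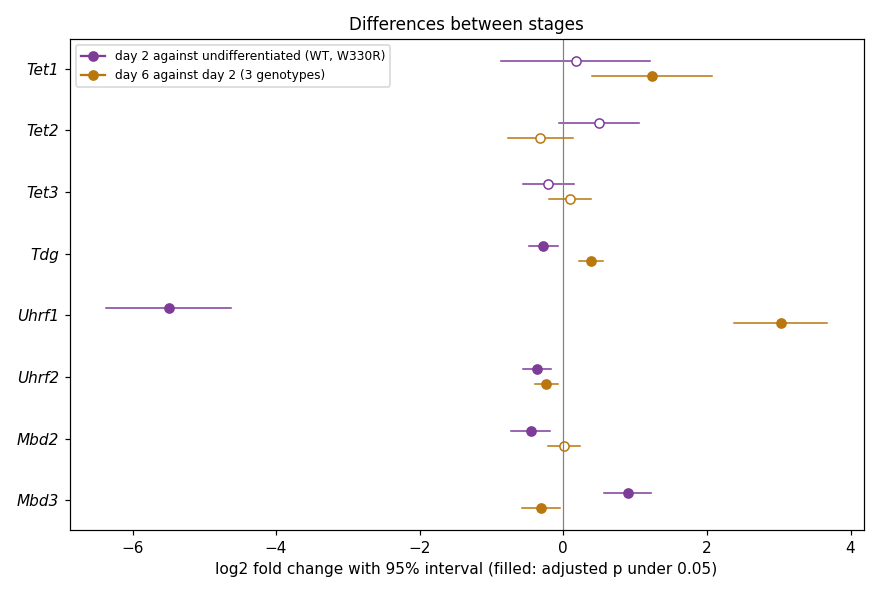
Log2 fold changes of 8 members for day 2 against undifferentiated cells (mean of WT and W330R) and for day 6 against day 2 (mean of 3 genotypes), with 95% intervals, filled where the edgeR adjusted p was under 0.05. Mbd1 is left out because of its zero counts. Uhrf1 lies at -5.50 and 3.03, and all other members shown lie within 1.24 of 0.

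Uhrf1 moved with most of the listed S phase and mitosis genes, and its changes were nearer in size to the medians of the mitosis genes. All 19 listed S phase genes were lower at day 2 than in undifferentiated cells, with a median log2 change of -2.65 against 0.07 over all genes, and 15 were higher and 2 lower on day 6 than on day 2, with a median of 0.86 against 0.01. The helicase subunit Mcm3 changed by -3.28 ± 0.14 (edgeR adjusted p = 5.3e-10) and then by 1.20 ± 0.11 (edgeR adjusted p = 9.5e-07). All 8 mitosis genes were lower at day 2, with a median of -5.02, and 7 were higher and 1 lower on day 6 against day 2, with a median of 2.54. Mki67, the marker of cycling cells, changed by -6.45 ± 0.54 and 3.22 ± 0.39 (edgeR adjusted p = 1.9e-07 and 1.3e-05). Among 11154 genes compared over the 11 condition means, those nearest to Uhrf1 were Kntc1 (Pearson r = 0.998), Melk (0.998) and Nuf2 (0.997), a kinetochore checkpoint protein, a kinase of dividing cells and a kinetochore subunit. These correlations are descriptions over conditions that share libraries and depth. Whether the share of cycling cells accounts for the level of Uhrf1 was not tested.

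Of the 11 listed partners of UHRF1 in maintenance methylation, 8 were tested. At day 2 6 were lower and 2 higher, with a median of -0.94. DNA ligase 1 (Lig1), which seals Okazaki fragments and is a ligand of UHRF1, fell by 3.20 ± 0.14 on the log2 scale, the remodeller Hells by 3.46 ± 0.25 and the sliding clamp Pcna by 0.97 ± 0.09 (edgeR adjusted p = 7.0e-10, 5.0e-08 and 4.2e-07). From day 2 to day 6 Lig1 rose by 1.71 ± 0.11 and Hells by 0.86 ± 0.19, whereas Cdca7, the activator of HELLS, fell by 0.53 ± 0.11 (edgeR adjusted p = 7.1e-08, 0.0019 and 0.0010). Dnmt1 itself went from 163 to 169 CPM in undifferentiated cells to 33.4 to 60.8 CPM at day 2, a log2 change of -2.02 ± 0.15 (edgeR adjusted p = 7.9e-08), and rose by 0.78 ± 0.12 to day 6 (edgeR adjusted p = 1.3e-04). The 95% intervals of Uhrf1 (-6.37 to -4.62) and Dnmt1 (-2.35 to -1.68) did not meet. Dnmt3a fell by 0.98 ± 0.28 at day 2 (edgeR adjusted p = 0.0078). Dnmt3b, at 3.03 to 7.63 CPM over all libraries, rose by 0.38 ± 0.14 from day 2 to day 6 (edgeR adjusted p = 0.038), a call lost when any of 7 libraries was left out, and Dnmt3l had 0 to 2 counts per library.

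**Figure D3:**
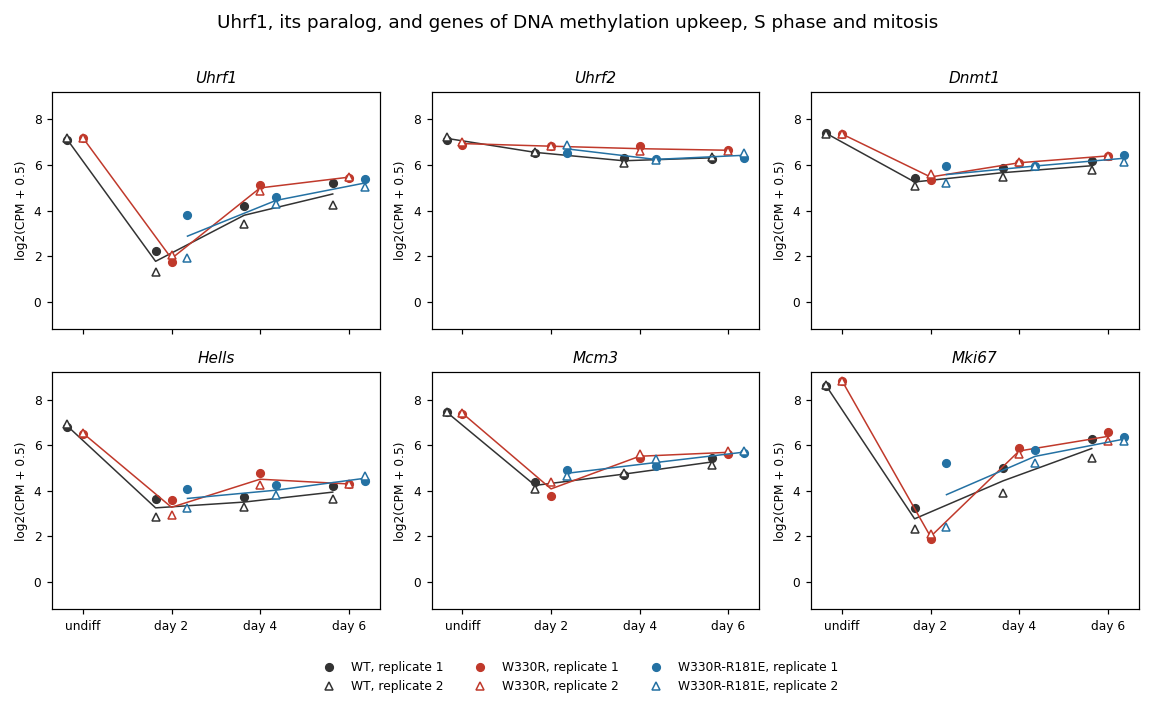
Log2(CPM + 0.5) of Uhrf1, Uhrf2, Dnmt1, Hells, the S phase gene Mcm3 and the mitosis gene Mki67 in each library by stage, on 1 shared vertical scale, circles for replicate 1 and triangles for replicate 2. Uhrf1 follows Mki67, with W330R-R181E replicate 1 above the other day 2 libraries in both, while Uhrf2 stays nearly level.

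Uhrf2 did not share this course. It stood at 136 and 150.2 CPM in undifferentiated WT cells and at 117.3 and 126 CPM in W330R. At day 2 it was at 91.1 and 95.2 CPM in WT, 112 and 113 CPM in W330R, and 91.2 and 118 CPM in W330R-R181E. Later it was lowest in WT, with 77.5 and 67.0 CPM on day 4 and 77.0 and 80.7 CPM on day 6, while W330R kept 113 and 96.0 CPM and then 101 and 97.3 CPM. W330R-R181E lay near WT, with 76.8 and 73.4 CPM on day 4 and 79.3 and 91.5 CPM on day 6. Both W330R libraries lay above all WT and W330R-R181E libraries on days 4 and 6, and below both WT libraries before differentiation. Over WT and W330R the step to day 2 was -0.37 ± 0.09 (1.29-fold lower, edgeR adjusted p = 0.0034), with -0.62 ± 0.13 in WT (adjusted p = 0.0014), and day 6 against day 2 was -0.24 ± 0.08 (adjusted p = 0.018). The latter call was lost without WT day 2 replicate 2, W330R-R181E day 2 replicate 2 or W330R-R181E day 6 replicate 1, with total counts only, with no filter, and with only the conditions compared. In W330R-R181E the step from day 2 to day 4 was -0.48 ± 0.13 (edgeR adjusted p = 0.036), a call lost without any of 5 libraries.

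Per length, both UHRF genes were at like levels before differentiation. With the longest GENCODE M21 transcript as the length, undifferentiated libraries had 37.7 to 40.7 CPM per kb of Uhrf1 and 33.2 to 42.5 CPM per kb of Uhrf2. On days 2 to 6 the ranges were 0.549 to 12.3 and 18.95 to 33.3 CPM per kb, and no longer met. With all exons as the length, undifferentiated Uhrf1 lay above Uhrf2, at 31.7 to 34.3 against 13.7 to 17.5 CPM per kb, so the likeness before differentiation rests on the length used. Other gene models share 15.4% of the 50-base stretches of Uhrf1 transcripts, and Gm15953, the one of them with counts, had at most 0.680 CPM.

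The genes nearest to Uhrf2 over the condition means were the translation factor Eif4g3 (r = 0.960), the protease Adamts1 (0.958) and the apoptosis inhibitor Faim (0.953). Uhrf1 and Uhrf2 had r = 0.35 with each other, and Uhrf1 was most opposed to Mbd3, with r = -0.91.

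Among the oxidases, only Tet1 passed the test in a comparison of stages. Undifferentiated WT cells had 4.23 and 4.01 CPM and undifferentiated W330R cells 12.8 and 11.6 CPM. On day 2 the libraries had 12.3 and 3.44 CPM in WT, 8.07 and 8.30 CPM in W330R, and 14.9 and 4.46 CPM in W330R-R181E. Day 4 gave 23.3 and 6.89 CPM in WT, 17.3 and 13.01 CPM in W330R, and 29.8 and 11.2 CPM in W330R-R181E. Replicates of WT and W330R-R181E thus disagreed by far more than those of W330R, and on days 2 and 4 the other genotypes straddled both W330R values. On day 6 the levels were 20.4 and 12.2 CPM in WT, 20.1 and 19.4 CPM in W330R, and 31.8 and 17.4 CPM in W330R-R181E. Replicate 1 was higher by 1.68 to 3.57 times in 6 of 6 WT and W330R-R181E conditions, the same libraries in which the chondrocyte markers were higher. What part the difference in these markers had in the Tet1 values was not tested.

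The log2 change of Tet1 from day 2 to day 6 was 1.24 ± 0.39 (2.36-fold, edgeR adjusted p = 0.016). Both day 6 libraries lay above both day 2 libraries in W330R and W330R-R181E, while in WT the lower day 6 value (12.2 CPM) met the higher day 2 value (12.3 CPM). The call was lost without W330R-R181E day 6 replicate 1, and without the 6 libraries the change was 1.68. From undifferentiated cells to day 2 it was 0.17 ± 0.49 (edgeR adjusted p = 0.78), which turned to -0.42 without the 6 libraries. Genes nearest to Tet1 over the condition means were the matrix protein gene Emilin1 (r = 0.971), the pattern receptor Nod1 (0.960) and Tril (0.958).

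Tet2 and Tet3 passed no test between stages with all libraries. Tet2 had 7.75 and 19.5 CPM in undifferentiated WT cells and 14.7 and 24.8 CPM in W330R, and its replicates differed by up to 2.52-fold. Its day 2 values ran from 19.0 to 31.3 CPM, those of day 4 from 13.3 to 27.9 CPM and those of day 6 from 13.95 to 25.4 CPM, and all of these ranges overlap. Tet3 ran from 71.7 to 79.9 CPM in undifferentiated cells, from 50.3 to 87.5 CPM at day 2, from 58.8 to 84.7 CPM on day 4 and from 57.8 to 77.2 CPM on day 6. At day 2 its replicates differed most, with 87.5 and 58.0 CPM in WT and 86.2 and 50.9 CPM in W330R-R181E, again higher in replicate 1. The interval of the change from undifferentiated to day 2 ran from -0.57 to 0.15 and that from day 2 to day 6 from -0.19 to 0.39 on the log2 scale. Without the 6 libraries Tet3 fell by 0.37 and then rose by 0.29. Per kb of the longest transcript, Tet3 was the most abundant of the oxidases, with a median of 6.24 CPM per kb on days 2 to 6 against 2.42 for Tet2 and 0.970 for Tet1. Antisense gene models overlap Tet2 and Tet3, and since use of strand in counting is not stated, their reads cannot be told apart.

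TET enzymes need 2-oxoglutarate, which isocitrate dehydrogenases make, and DNA-binding partners that place them. Of 14 listed cofactor and partner genes 11 were tested, and at day 2 6 were higher and 3 lower than in undifferentiated cells, with a median of 0.49. D2hgdh, which removes the TET inhibitor 2-hydroxyglutarate, rose by 1.30 ± 0.14, and the mitochondrial and cytosolic dehydrogenase genes Idh3a and Idh1 by 2.67 ± 0.33 and 1.88 ± 0.26 (edgeR adjusted p = 2.4e-06, 6.9e-06 and 2.3e-05). By day 6 Idh1 and Idh3a had fallen again, by 1.20 ± 0.21 and 1.22 ± 0.25 (edgeR adjusted p = 2.8e-04 and 0.0010), with 2 of the list higher and 4 lower against day 2.

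Tdg was steadier between replicates than the oxidases, with at most a 1.23-fold difference within any condition. It had 41.5 and 39.5 CPM in undifferentiated WT cells, 35.6 and 38.9 CPM in W330R, and 34.1 and 42.0 CPM at day 2 in WT. W330R at day 2 was lowest of the 11 conditions, at 29.4 and 24.5 CPM, and W330R-R181E had 43.3 and 38.1 CPM then. Both W330R libraries lay below all other day 2 libraries. On day 4 the values were 37.5 and 35.4 CPM in WT, 40.0 and 35.5 CPM in W330R, and 45.8 and 39.5 CPM in W330R-R181E. By day 6 they were 43.4 and 38.3 CPM in WT, 45.7 and 45.2 CPM in W330R, and 49.8 and 50.2 CPM in W330R-R181E, with no overlap between genotypes. The step to day 2 was -0.28 ± 0.10 over WT and W330R (edgeR adjusted p = 0.021), with -0.47 ± 0.14 in W330R (adjusted p = 0.012, lost with no filter and without W330R undifferentiated replicate 2 or W330R day 2 replicate 2, up to 0.12), and day 6 against day 2 was 0.38 ± 0.08 over the 3 genotypes (1.30-fold, adjusted p = 9.1e-04). In W330R Tdg rose by 0.49 ± 0.13 to day 4 and by 0.75 ± 0.13 to day 6 (edgeR adjusted p = 0.030 and 0.0014), the former lost without any of the 4 libraries compared. The call of the step to day 2 was lost without any of 4 libraries (WT undifferentiated replicate 1, W330R undifferentiated replicate 2, WT day 2 replicate 1 and W330R day 2 replicate 2). It was also lost with no filter, and without the 6 libraries the change was -0.21.

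The counts of Tdg are uncertain in size, since 35.5% of the 50-base stretches of its transcripts also occur in other gene models. Of these, Gm9855 carried counts of its own, with 26.9 to 38.7 CPM in undifferentiated cells and 10.8 to 22.3 CPM on days 2 to 6. Tdg took 51.1% to 75.8% of the counts of this pair. Gm9855 fell by 1.20 ± 0.12 at day 2 (edgeR adjusted p = 1.2e-06). With both summed, the step to day 2 was -0.63 rather than -0.28 (adjusted p = 1.7e-05) and day 6 against day 2 was 0.29 (adjusted p = 0.0025). The direction was the same with either count, and the size at day 2 was over 1.5 times larger with the sum. Genes nearest to Tdg over the condition means were Fndc3b (r = 0.906), Sema3c (0.871) and Zfp493 (0.847). Glt8d2, which overlaps Tdg on the opposite strand, fell from between 25.5 and 38.1 CPM to at most 2.14 CPM at day 2, and its part in the Tdg counts was not tested.

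Of the 13 listed genes of base excision and demethylation 12 were tested. At day 2 5 were called lower and 2 higher, beside 63.0% of all genes called, with a median of -0.33. From day 2 to day 6 5 were called higher and 3 lower, beside 51.5% of all genes. Neil3, a glycosylase known from dividing cells, followed the course of Uhrf1, with -4.17 ± 0.38 and then 1.79 ± 0.29 (edgeR adjusted p = 4.4e-07 and 1.7e-04). Lig3, the ligase of single-strand break repair, fell by 0.74 ± 0.08 at day 2 (edgeR adjusted p = 2.0e-06). The stress gene Gadd45g did the reverse of Neil3, with 3.18 ± 0.38 and -1.91 ± 0.29 (edgeR adjusted p = 5.1e-06 and 8.7e-05). From day 2 to day 6 the endonuclease Apex1 fell by 0.80 ± 0.08 and the polymerase Polb by 0.53 ± 0.07 (edgeR adjusted p = 2.0e-06 and 2.5e-05).

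The methyl-CpG readers moved in unlike ways. Mbd3 had 120 and 112 CPM in undifferentiated WT cells and 108 and 106 CPM in W330R. At day 2 it had 171 and 259 CPM in WT, 182 and 217 CPM in W330R, and 181.1 and 259 CPM in W330R-R181E. All 6 day 2 libraries lay above all 4 undifferentiated ones, and replicate 2 was the higher in each genotype. The log2 change was 0.90 ± 0.15 (1.86-fold, edgeR adjusted p = 1.4e-04), and it was 0.90 ± 0.22 in WT and in W330R alike (adjusted p = 0.0032 and 0.0035), the WT value falling to 0.55 without WT day 2 replicate 2 (adjusted p = 0.072). On day 4 it stood between 138 and 175 CPM and on day 6 between 141 and 196 CPM, still above every undifferentiated library. Day 6 against day 2 was -0.31 ± 0.12 (edgeR adjusted p = 0.046), a call lost when any of 15 libraries was left out and under most other settings. The fit without the 6 libraries gave -0.59. Nearest to Mbd3 over the condition means were Fxr2 (r = 0.989), Pelo (0.988) and Rxrb (0.986).

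Mbd2, the NuRD subunit that takes the place of MBD3, went the other way. It had 81.2 and 80.4 CPM in undifferentiated WT cells and 77.8 and 79.1 CPM in W330R. At day 2 it had 59.4 and 72.8 CPM in WT, 47.9 and 53.9 CPM in W330R, and 45.7 and 64.6 CPM in W330R-R181E. Every day 2 library lay below every undifferentiated one. The log2 change was -0.46 ± 0.13 (1.37-fold lower, edgeR adjusted p = 0.0059), with -0.62 ± 0.18 in W330R (adjusted p = 0.011, and 0.074 without W330R day 2 replicate 1). It then stayed between 53.1 and 67.8 CPM on day 4 and between 45.3 and 63.3 CPM on day 6, with an interval of the change from day 2 to day 6 of -0.21 to 0.23 on the log2 scale. Nearest to it over the condition means were Rock1 (r = 0.965), Dcaf17 (0.965) and Hat1 (0.964).

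Per kb of the longest transcript, Mbd3 was the most abundant of the 9 genes, with medians of 66.0 CPM per kb in undifferentiated cells and 103 CPM per kb on days 2 to 6, against 40.8 and 29.6 for Mbd2. The other 13 subunits of NuRD were all tested. At day 2 8 were lower and 3 higher, with a median of -0.35. The histone chaperone Rbbp4 rose by 0.71 ± 0.09, while the scaffold Gatad2a fell by 0.50 ± 0.08 and Mta3 by 0.60 ± 0.10 (edgeR adjusted p = 9.7e-06, 7.2e-05 and 1.1e-04). From day 2 to day 6 4 were higher and 2 lower, with Mta3 back up by 0.87 ± 0.08 and Rbbp4 down by 0.62 ± 0.07 (edgeR adjusted p = 1.2e-06 and 1.1e-05).

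Mbd1 was listed at 0 in 12 of 22 libraries and at 7 to 225 counts in the others. It had 56 and 225 counts in undifferentiated WT cells (4.93 and 10.0 CPM), 48 and 7 counts in W330R (3.92 and 0.810 CPM), and 23 and 21 counts in WT at day 2. The other counts above 0 were 78 in W330R day 2 replicate 1, 18 in W330R day 6 replicate 2, and 18 and 17 in W330R-R181E replicate 1 on days 2 and 4. In the other 12 libraries it was listed at 0, which may be a failed estimate. Of the 11969 genes with over 100 counts in some library, 46 were at 0 in as many libraries. edgeR called it lower on day 6 than on day 2 (adjusted p = 0.040), DESeq2 called 5 of the 9 members there and not Mbd1, nor was Mbd1 called without the 6 libraries, and no fold is given because most day 6 libraries were at 0. Its nearest genes over the condition means (Rpl13a, Siah2 and Prep, r = 0.951, 0.951 and 0.948) rest on these few counts. Among 5 listed partners of MBD1 3 were lower and 1 higher at day 2. Chaf1a, the histone chaperone of S phase, fell by 1.96 ± 0.17 and the methyltransferase Suv39h1 by 0.90 ± 0.09, and the corepressor Trim28 rose by 0.72 ± 0.10 (edgeR adjusted p = 2.6e-07, 1.1e-06 and 2.2e-05), while from day 2 to day 6 1 of the 5 was higher and 2 were lower.

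Of 8 other genes listed as methyl-CpG readers or proteins related to them, 6 were lower and 2 higher at day 2. On day 6 against day 2, 4 were higher and 1 lower. Binding to methylated CpG was not measured here. The zinc finger readers Zbtb38 and Zbtb4 fell by 2.20 ± 0.10 and 0.70 ± 0.08 at day 2 (edgeR adjusted p = 7.3e-10 and 5.6e-06) and rose by 0.56 ± 0.08 and 1.22 ± 0.07 to day 6 (edgeR adjusted p = 4.6e-05 and 2.1e-08). Mbd6, the MBD protein of a histone deubiquitinase complex, did the opposite, with 1.32 ± 0.15 and -0.57 ± 0.12 (edgeR adjusted p = 3.7e-06 and 0.0014).

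Few of these genes passed the test between the DNMT3A genotypes. W330R against WT, averaged over the 4 stages, called 22.9% of all genes and 1 of the 9 members. Uhrf2 was higher by 0.23 ± 0.07 (1.17-fold, edgeR adjusted p = 0.024), below WT in undifferentiated cells and above it on days 2, 4 and 6. Over the 3 differentiated days alone, an average chosen after the values were seen, the difference was 0.38 (adjusted p = 0.0023). The call was lost with no filter (adjusted p = 0.068) and without WT undifferentiated replicate 1, W330R undifferentiated replicate 2, WT day 4 replicate 2, W330R day 4 replicate 1 or W330R day 6 replicate 1. Stage by stage, 1.75%, 3.06%, 6.14% and 7.54% of genes were called in undifferentiated cells and on days 2, 4 and 6, and Uhrf2 on day 4 was the only member called, at 0.53 ± 0.13 (edgeR adjusted p = 0.033). That call was lost without WT day 4 replicate 2 or either W330R day 4 library. Of the 3 stages with 0 members called by edgeR, each had 1 member at an unadjusted p under 0.05, and DESeq2 called 0, 1 and 0.

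Other members differed between W330R and WT in ways that depended on the libraries. Tet1 was 2.97-fold higher in undifferentiated W330R than in WT cells, with no overlap between libraries. This log2 difference of 1.57 ± 0.71 missed the threshold with the spread of all conditions (edgeR adjusted p = 0.38). It passed in a fit to those 4 libraries alone (edgeR adjusted p = 2.0e-04). Averaged over stages the difference in Tet1 was 0.48 ± 0.34 (adjusted p = 0.33), and 1.16 without the 6 libraries. Uhrf1 was likewise at 0.51 ± 0.25 (adjusted p = 0.16) with all libraries and at 0.92 without them. Mbd2 was at -0.16 ± 0.09 (adjusted p = 0.21) with all libraries and at -0.25 without the 6. Tdg at day 2 was lower in W330R by 0.50 ± 0.13 on the log2 scale and missed the threshold (edgeR adjusted p = 0.062). It passed with Gm9855 added (0.027), with the replicate number as a block (0.035) and in DESeq2 (0.010). Without single libraries the log2 difference ran from -0.64 to -0.32.

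W330R-R181E against W330R, averaged over days 2, 4 and 6, called 17.2% of all genes and 2 of the 9 members. Tdg was higher in the double mutant by 0.30 ± 0.08 (1.23-fold, edgeR adjusted p = 0.016) and Uhrf2 lower by 0.27 ± 0.08 (1.20-fold, adjusted p = 0.027). The former was lost without W330R-R181E day 4 replicate 1 (adjusted p = 0.0503), the latter without any of 7 libraries. The difference in Tdg was largest on day 2, at 0.59 ± 0.14 (edgeR adjusted p = 0.032), where both libraries of the double mutant lay above both of W330R. That call was lost without any of 6 single libraries, with total counts only, with no filter and with only the conditions compared. The difference in Uhrf2 was largest on day 4, at -0.48 ± 0.13 (edgeR adjusted p = 0.088). With Gm9855 added, Tdg was higher by 0.38 (adjusted p = 0.0019), and Gm9855 itself by 0.56 ± 0.10 (adjusted p = 0.0016). Without the 6 libraries the differences were 0.24 for Tdg and -0.19 for Uhrf2, both smaller in size than with all libraries. Tet1 and Uhrf1 then lay at -0.50 and -0.38, against 0.33 ± 0.38 and 0.18 ± 0.28 with all libraries. W330R-R181E day 2 replicate 1 had the highest Uhrf1 and Tet1 of that day, alongside 1373 CPM of Col2a1 against 41.1 CPM in replicate 2, and without it alone the differences were -0.037 for Tet1 and -0.26 for Uhrf1. By day, 2.67%, 1.91% and 1.50% of genes were called on days 2, 4 and 6, with 1, 0 and 0 members. On the latter 2 days 1 and 0 members had an unadjusted p under 0.05, and DESeq2 called 1 and 0.

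W330R-R181E against WT over the same days called 9.57% of genes and 0 members with edgeR. Uhrf1 and Tdg had an unadjusted p under 0.05, and DESeq2 called Uhrf1 (adjusted p = 0.028). Uhrf1 was at 0.83 ± 0.29 (1.78-fold, 95% interval 0.21 to 1.45, edgeR adjusted p = 0.082), and at 0.83 without the 6 libraries. It was past the threshold with no filter, with the replicate number as a block (0.033) and without WT day 6 replicate 1 or W330R-R181E day 2 replicate 2. Tdg was at 0.20 ± 0.08 (adjusted p = 0.11). Tet1 was at 0.45 ± 0.39 (adjusted p = 0.49), and at 0.53 without the 6 libraries. Each pair of these 3 comparisons shares a group: W330R against WT and W330R-R181E against W330R share the W330R libraries with opposite sign, both comparisons of W330R-R181E share its libraries, and both comparisons against WT share those of WT. The intervals of Mbd3 ran from -0.30 to 0.16, from -0.21 to 0.32 and from -0.27 to 0.26 on the log2 scale in the 3 comparisons, those of Mbd2 from -0.35 to 0.03, from -0.18 to 0.26 and from -0.39 to 0.06.

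**Figure D4:**
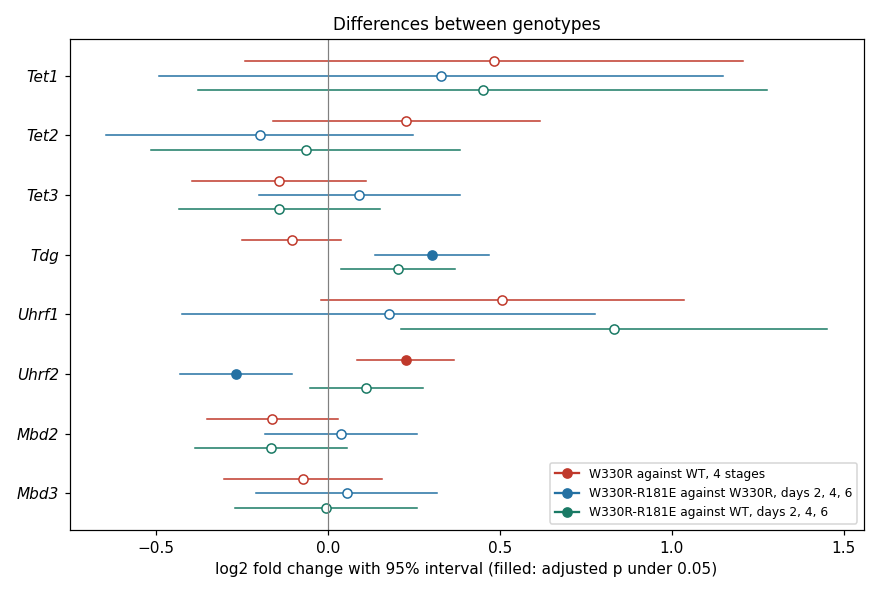
Log2 fold changes of 8 members between genotypes with 95% intervals, filled where the edgeR adjusted p was under 0.05. Filled points are Uhrf2 in W330R against WT (0.23), and Tdg (0.30) and Uhrf2 (-0.27) in W330R-R181E against W330R, and the intervals of Tet1 and Uhrf1 are the widest.

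Among the listed partners, a few genes also differed between genotypes, to be read beside the 22.9%, 17.2% and 9.57% of all genes called in W330R against WT, W330R-R181E against W330R and W330R-R181E against WT. In W330R against WT the imprint reader Zfp57 was higher by 1.16 ± 0.12 and lower by 1.45 ± 0.14 in W330R-R181E against W330R (edgeR adjusted p = 5.3e-05 and 2.1e-05), 1 of the 2 readers called in each of these comparisons, the others being Zbtb4 (0.23 ± 0.06, adjusted p = 0.012) and Mbd4 (0.64 ± 0.15, adjusted p = 0.0089). The 1.16 of Zfp57 did not hold at every stage. Before differentiation both W330R libraries (7.19 and 8.33 CPM) lay below both WT libraries (9.86 and 12.2 CPM). At day 2 W330R had 43.0 and 32.7 CPM of Zfp57 against 9.29 and 6.10 CPM in WT. W330R also lay above WT on days 4 and 6. Of the 8 readers, 1 was called higher in W330R minus WT for the step from undifferentiated cells to day 2. The remodeller subunit Chd3 was lower by 1.12 ± 0.14 in W330R-R181E against W330R and by 0.74 ± 0.14 against WT (edgeR adjusted p = 1.6e-04 and 0.0085). For NuRD as a whole, 2 of 13 were higher and 0 lower in W330R against WT, 0 higher and 2 lower in W330R-R181E against W330R, and 2 higher and 1 lower in W330R-R181E against WT. Of the 12 base excision genes 0 were higher and 1 lower in W330R, the latter being Gadd45a (-0.50 ± 0.10, adjusted p = 0.0034), and 4 were higher and 0 lower in W330R-R181E against W330R, among them Mbd4, Gadd45a (0.49 ± 0.12) and Apex1 (0.31 ± 0.08). The partners of UHRF1 had 3 higher and 1 lower in W330R, led by Lig1 at 0.47 ± 0.09 (adjusted p = 0.0032), 0 higher and 1 lower in W330R-R181E against W330R, which was Cdca7 (-0.44 ± 0.11, adjusted p = 0.014), and 2 higher and 0 lower in W330R-R181E against WT, which were Hdac1 (0.65 ± 0.11) and Pcna (0.27 ± 0.07). Of the 19 S phase genes 4 were higher and 1 lower in W330R, 0 higher and 1 lower in W330R-R181E against W330R, and 5 higher and 0 lower in W330R-R181E against WT. Adipocyte markers differed too, with 4 of 8 lower in W330R, led by Cebpa (-1.86 ± 0.16, adjusted p = 1.85e-05), 0 higher and 4 lower in W330R-R181E against WT, and 4 higher and 1 lower in W330R-R181E against W330R. Of 6 mesenchymal markers 3 were higher and 0 lower in W330R against WT, 0 higher and 4 lower in W330R-R181E against W330R, and 0 were called in W330R-R181E against WT, and the 1 osteoblast marker tested was higher, lower and not called in the same order. The part of these markers in the members' values was not tested. Among the TET partners 1 was higher and 2 lower in W330R against WT, and 0 were higher and 1 lower in W330R-R181E against W330R. Hdac1 stands in both the UHRF1 and the NuRD list, and Mbd4 in both the base excision and the reader list.

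Whether the genotypes differed in how the members changed over time was tested with interaction terms. Between days 2 and 6, W330R against WT called 0.0895% of genes and 0 members with edgeR, and DESeq2 called 0 members. Tdg had an unadjusted p of 0.0040, with a rise larger by 0.65 ± 0.19 in W330R (edgeR adjusted p = 0.32), and by 0.89 without the 6 libraries. For W330R-R181E against W330R the share was 0%, beside 596 genes at an unadjusted p under 0.05 and 39 called by DESeq2, with 0 members called by either tool. Uhrf1 had -1.58 ± 0.70 (unadjusted p = 0.041) and Tdg -0.46 ± 0.19 (unadjusted p = 0.030), both with an edgeR adjusted p of 1.00. From undifferentiated to day 2, W330R against WT called 1.87% of genes and 0 members, again 0 with DESeq2, and Uhrf2 had 0.50 ± 0.19 (unadjusted p = 0.017, edgeR adjusted p = 0.21). With 2 libraries per condition the intervals of these terms were wide, and for Uhrf1 in the first of them ran from -1.02 to 2.11 on the log2 scale.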

How the data were processed

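RNA was measured by sequencing in 22 libraries of C3H 10T1/2 cells. The authors prepared libraries from total RNA with a NEBNext Ultra II kit and deposited whole-number counts per gene symbol, with no normalization. The submitters' processing notes list kallisto (no version), DESeq2 1.40 and the build GRCm39 without their roles; if kallisto made the values, they are rounded estimates, and use of strand is not given in the sources used here. Fold-change tables of the authors were not used. The 9 members and the gene lists were chosen with earlier results of these data known.

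The deposited counts were filtered with filterByExpr (minimum count 10, minimum total 15), scaled by TMM and fitted with the quasi-likelihood model of edgeR 4.0.16 (R 4.3.3), 1 mean per condition over all 22 libraries. Calls needed an adjusted p (Benjamini-Hochberg, two-sided, over 14520 genes) under 0.05. SE is the size of the log2 fold change over the square root of F, and intervals are 95%. The script was tested on simulated data. A level is CPM with the TMM library size, and correlations use log2 CPM (prior count 2) of genes with a mean of at least 1. Total counts of 8859501 to 47453908 limit low values, and 3 counts were taken as the floor, for counting error only. Named are all members, the DNA methyltransferases, up to 3 genes of each list with the smallest adjusted p in a comparison, the 3 genes nearest to each member, and defining markers that touch a result; the other genes named were chosen after their values were seen, and 1 gene that the rule names is not reported here. Alternatives were RLE, total counts only, no filter, DESeq2 1.42.0, only the conditions in a comparison, a replicate block and leaving out each library; 3 more were added after seeing the data: leaving out 6 libraries, adding Gm9855 to Tdg, and averaging days 2, 4 and 6 only. Transcript lengths and shared stretches come from GENCODE M21 (GRCm38), another build than the notes give, so no gene coordinates were carried over. Promoters come from RefSeq (GRCm38.p6); 7 of the 9 members were looked up there. No protein sequences were used here.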

Additional observations from a re-analysis of the deposited data

How the results depend on the processing

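Of 52 differences of single genes printed above, 1067 of 1144 refits that left out 1 library and 328 of 379 other alternatives kept direction and side of the threshold. Each difference was refitted without each of the 22 libraries, also those outside its comparison, and one that stayed uncalled counts as kept. These totals therefore do not measure how firm a call is. Numbers of members called moved as follows, and for the 3 genotype comparisons the fit without the 6 libraries is not counted. W330R against WT called 1, with no filter 0 and with Gm9855 added to Tdg 2, and the number moved in 6 of 22 refits that left out 1 library. W330R-R181E against W330R called 2; with total counts only, with no filter and with only the conditions compared 1, and 1 to 2 without single libraries. W330R-R181E against WT called 0, and 1 with no filter, the replicate block and DESeq2, and the number moved in 2 of 22 refits that left out 1 library. Day 6 against day 2 called 6; with only the conditions compared 3, and 3 to 6 without single libraries. Day 2 against undifferentiated stayed at 4 to 6, and the 3 interaction terms at 0, under every alternative run. Signs turned for Uhrf1 and Tet1 in W330R-R181E against W330R (-0.26 to 0.43 and -0.037 to 0.55 without single libraries, lowest without W330R-R181E day 2 replicate 1, and -0.38 and -0.50 without the 6 libraries), for Tet1 at day 2 against undifferentiated (-0.42 to 0.49, lowest without WT day 2 replicate 1, and -0.42 without the 6), and for Tet3 on day 6 against day 2 (-0.022 to 0.24, lowest without W330R-R181E day 2 replicate 2). The causes were not tested. The labels do not say that a replicate number marks a shared culture or batch. Deviations of same-numbered libraries correlated over 0.1 in 27 of 55 pairs of conditions (median 0.088, lowest -0.066). Pairs with an undifferentiated condition lay between -0.066 and 0.030, so all 27 were pairs of differentiated conditions. They include all 9 pairs of genotypes on the same day (0.157 to 0.534). Same-numbered differentiated libraries thus deviated alike in part, and the main fit has no term for this. With the replicate block, genes called rose from 3329 to 4092, from 2501 to 3185 and from 1390 to 2338 in the 3 genotype comparisons, and 2 of the differences printed above passed the threshold with it, Uhrf1 in W330R-R181E against WT and Tdg in W330R against WT at day 2. DESeq2 called 2272 in the last of these, 129 against 13 for the change from day 2 to day 6 in W330R minus WT, and 672 against 271 for that from undifferentiated to day 2.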
